A study of Mus musculus with 8 samples.

Results

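The genes described here are the BTB zinc finger genes of the mouse, taken by symbol: protein-coding genes of RefSeq (GRCm38) whose symbol starts with Zbtb, without Zbtb7a, Zbtb7b and Zbtb7c. They number 38 of 21631 protein-coding genes on autosomes and chromosome X and lie on 14 chromosomes. Chromatin immunoprecipitation with sequencing had mapped Zbtb7a, Mta2 and Mbd3 in kidney cortex, where Mta2 and Mbd3 stand for NuRD, a complex that moves nucleosomes and removes acetyl groups from histones. The samples form 4 groups of 2 biological replicates each, for Zbtb7a, Mta2, Mbd3 and Input chromatin. The titles of every group carry the same pair of numbers, so the groups may share the same 2 mice, which the titles do not state. All mice were 2 months old and carried a floxed Mta2 allele (genotype Mta2flx/flx), with no Cre named in the labels, so all lists share that genotype. Chromatin was cross-linked with disuccinimidyl glutarate and then formaldehyde, which also captures proteins held at DNA through other proteins. Each factor has 1 deposited peak list that stands for both of its mice. No value per mouse exists in the lists, so spread between animals was not measured, no test of a difference was possible, and counts over the family stand beside the same counts over all protein-coding genes.

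BTB zinc finger proteins join an amino-terminal BTB domain, through which they pair and recruit co-repressors, to carboxy-terminal zinc fingers that read DNA. Many act as repressors, and Zbtb7a, also known as LRF or Pokemon, is the member that represses fetal globin genes in red cells together with NuRD. Kidney cortex holds many cell types, so a peak cannot be assigned to one of them, and peak lists hold no expression with which to check the tissue against its markers. Whether Zbtb7a sits at the genes of its own family was the question addressed. The rule also takes in Zbtb8os, which is named for its position beside Zbtb8a and encodes archease, a cofactor of tRNA ligation without a BTB domain.

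A gene was called occupied where a peak summit lay in its span or within 1 kb of either end. The fold of a peak is the authors' enrichment of signal over background at the summit, and a percentile is the rank of a gene's highest fold among all protein-coding genes occupied in the same list. Folds of different lists can differ in antibody and depth. Lists were therefore set against each other through these ranks and after being cut to equal length. Where folds of different lists stand side by side, they are not measures of relative binding.

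Promoter sequences show what lay under the strongest Zbtb7a summits of the family. They are RefSeq promoters of GRCm38.p6, from 250 bases before to 50 bases after an annotated start, and 34 of the 38 genes have at least 1 in the table. The first 4 belong to the members of highest Zbtb7a fold whose strongest summit fell inside such a window, and the last, of Zbtb43, is a window without a Zbtb7a summit. They are the promoters of Zbtb39 (chr10:127739280-127739579, + strand), Zbtb34 (chr2:33431275-33431574, - strand), Zbtb14 (chr17:69383554-69383853, + strand), Zbtb18 (chr1:177442101-177442400, + strand) and Zbtb43 (chr2:33468483-33468782, - strand). Capitals mark matches on either strand to CCGGAAG, the core that proteins of the ETS family bind and that also occurs in published Zbtb7a motifs, and to CCCTTCCCC, the letters of the fetal globin promoter site of Zbtb7a.
Zbtb39: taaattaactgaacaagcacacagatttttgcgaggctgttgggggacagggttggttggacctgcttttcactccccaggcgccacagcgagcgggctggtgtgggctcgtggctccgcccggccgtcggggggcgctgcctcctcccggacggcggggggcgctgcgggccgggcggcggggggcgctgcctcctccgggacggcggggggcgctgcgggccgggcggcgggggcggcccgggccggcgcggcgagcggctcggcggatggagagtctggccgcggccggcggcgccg
Zbtb34: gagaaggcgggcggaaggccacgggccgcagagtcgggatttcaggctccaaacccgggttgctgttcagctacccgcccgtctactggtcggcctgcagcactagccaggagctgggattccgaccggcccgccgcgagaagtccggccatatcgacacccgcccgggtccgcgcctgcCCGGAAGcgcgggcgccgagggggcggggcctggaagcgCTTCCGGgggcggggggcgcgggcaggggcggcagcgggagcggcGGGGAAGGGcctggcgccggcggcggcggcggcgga
Zbtb14: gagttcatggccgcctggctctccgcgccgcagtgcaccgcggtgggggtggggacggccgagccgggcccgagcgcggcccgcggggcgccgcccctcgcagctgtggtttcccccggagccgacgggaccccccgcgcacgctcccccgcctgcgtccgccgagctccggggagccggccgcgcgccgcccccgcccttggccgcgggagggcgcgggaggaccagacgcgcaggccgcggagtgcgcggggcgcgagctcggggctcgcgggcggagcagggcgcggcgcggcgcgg
Zbtb18: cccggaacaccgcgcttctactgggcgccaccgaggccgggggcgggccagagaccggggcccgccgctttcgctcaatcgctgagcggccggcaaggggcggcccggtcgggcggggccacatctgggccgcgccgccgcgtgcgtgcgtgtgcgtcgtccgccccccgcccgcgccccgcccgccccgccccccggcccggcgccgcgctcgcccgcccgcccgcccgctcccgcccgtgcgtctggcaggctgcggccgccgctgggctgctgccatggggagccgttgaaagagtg
Zbtb43: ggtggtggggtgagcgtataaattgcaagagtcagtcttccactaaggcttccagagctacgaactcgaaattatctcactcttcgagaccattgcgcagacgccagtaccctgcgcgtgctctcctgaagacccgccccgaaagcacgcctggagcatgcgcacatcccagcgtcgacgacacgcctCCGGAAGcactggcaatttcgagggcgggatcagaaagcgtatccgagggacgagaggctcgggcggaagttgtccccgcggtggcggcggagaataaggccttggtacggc

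The Zbtb39 window is 77.0% G and C with 42 CpG and repeats CGGGGGGCGCTGC 4 times, and its Zbtb7a summit lay 61 bases before the start. It holds neither marked motif. In the Zbtb34 window both motifs occur, with 2 matches to CCGGAAG and 1 to CCCTTCCCC, whose centres lay 11, 50 and 35 bp from the summit. The windows of Zbtb14 and Zbtb18, with 56 and 51 CpG, hold neither motif under summits 105 and 158 bases before the start. Zbtb43 has a CCGGAAG match 59 bases before its start, and the nearest Zbtb7a summit lay 584 bp from it with a fold of 10.1. The peak of that summit, at 33467510 to 33468860, covers the whole window, so only the summit lay outside. The strongest Mta2 and Mbd3 summits of the gene lay inside the window.

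Every member of the family was occupied by Zbtb7a, by Mta2 and by Mbd3. For Zbtb7a this was 38 of 38 genes (100.0%, exact 95% binomial interval 90.7 to 100.0, which covers counting error only), against 76.0% of all protein-coding genes. For Mta2 and Mbd3 the count was also 38 of 38, against 77.7% and 76.5% of all genes. All 3 factors together were at 38 of 38 members and at 74.7% of all genes, and 21.2% of all genes had no factor. A summit within 1 kb of an end was present at 33 members for each factor, against 65.6% of all genes for Zbtb7a, 67.2% for Mta2 and 65.5% for Mbd3. The 5 members without a Zbtb7a summit at an end, Zbtb2, Zbtb8b, Zbtb11, Zbtb38 and Zbtb46, carried theirs inside the span.

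Promoter composition moved with this count. Of the 34 members with a promoter in the table, 27 had a CpG-rich one (at least 55% G and C, and CpG at 0.6 or more of the number the base composition gives), against 44.6% of all genes in the table. Genes with a CpG-rich promoter were occupied by Zbtb7a in 98.2% of cases, by Mta2 in 99.0% and by Mbd3 in 98.3%, so the full occupancy of the family is near the level of that class. The part of promoter composition in the folds below was not tested. All 7 members without a CpG-rich promoter were also occupied by all 3 factors, against 57.7% of such genes for Zbtb7a, 60.0% for Mta2 and 58.4% for Mbd3. The 7 include Zbtb20 and Zbtb46, which span 759 and 122 kb. Their strongest Zbtb7a summits lay at -371125 and -35064 bp from their only listed starts. Of all genes over 31.7 kb long, 93.1% were occupied by Zbtb7a. Zbtb6, at 54.3% G and C, fell just short of the class. Gene length differed less, with a median span of 19.7 kb for members and 17.3 kb for all genes.

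Among the 50000 Zbtb7a peaks of highest −log10 q, 38 of 38 members still had a summit, against 93.7% of genes with a CpG-rich promoter and 65.7% of all genes. With 20000 peaks the count was 33 of 38 (86.8%), against 77.7% of CpG-rich genes and 48.3% of all genes. With 10000 peaks it was 25 (65.8%), against 53.0% and 30.8%. With 5000 peaks it was 19 (50%), against 31.3% and 17.8%. The 19 were Zbtb1, Zbtb2, Zbtb5, Zbtb8os, Zbtb11, Zbtb12, Zbtb14, Zbtb16, Zbtb18, Zbtb20, Zbtb25, Zbtb26, Zbtb32, Zbtb34, Zbtb37, Zbtb38, Zbtb39, Zbtb44 and Zbtb46. Of the 27 CpG-rich members, 15 (55.6%) had a summit at that length, also above the share of CpG-rich genes, and the difference was not tested.

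Mta2 and Mbd3 gave equal or smaller counts. With 50000 peaks both still had a summit at 38 of 38 members. For Mta2 this was against 94.1% of CpG-rich genes and 66.0% of all genes, and for Mbd3 against 93.2% and 65.3%. With 20000 peaks Mta2 was at 30 members (78.9%), against 76.0% of CpG-rich genes and 47.3% of all genes. Mbd3 was at 33 (86.8%), against 75.9% and 47.5%. With 10000 peaks Mta2 was at 23 (60.5%), against 51.3% and 29.9%, and Mbd3 at 21 (55.3%), against 49.5% and 29.3%. Of the 5000 top peaks, Mta2 had a summit at 16 members (42.1%), against 30.1% of CpG-rich genes and 16.9% of all genes. Mbd3 had one at 15 members (39.5%), against 28.6% and 16.3%. Zfp genes, the large group of zinc finger genes that often lie in clusters, stood lower: 74 of 397 (18.6%) had a Zbtb7a summit among the top 5000. Klf genes, which encode Krüppel-like factors, stood at 9 of 17 (52.9%). With 5000 peaks they also stood at 9 (52.9%) for Mta2 and at 8 (47.1%) for Mbd3. Whether the families differ was not tested.

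**Figure D1:**
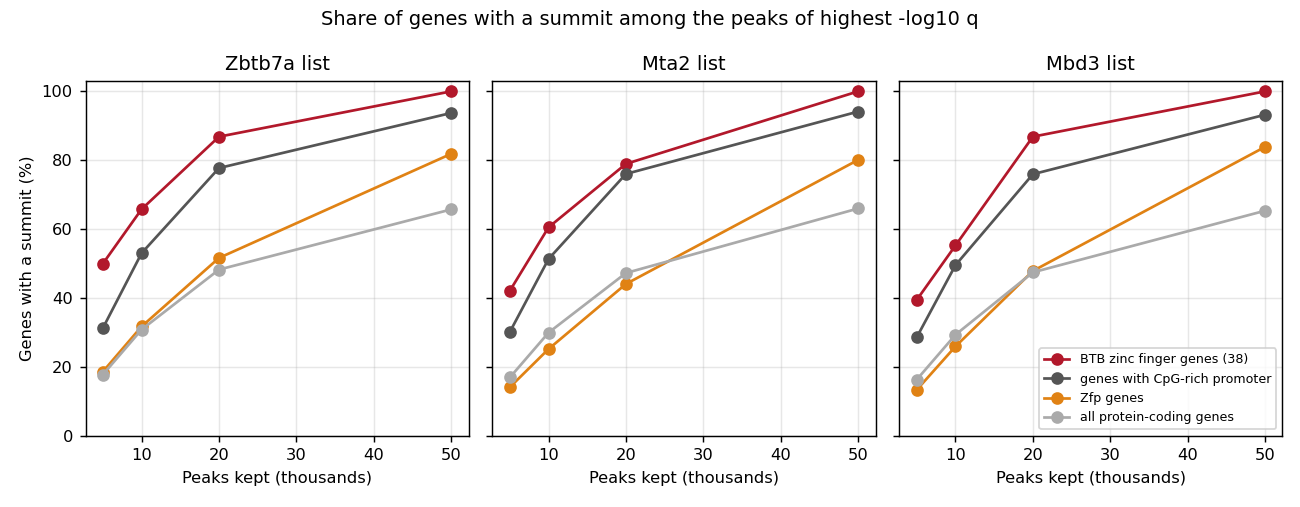
Share of genes with a summit (vertical axis, percent) when each list is cut to its 5000, 10000, 20000 or 50000 peaks of highest −log10 q (horizontal axis), for the 38 BTB zinc finger genes, genes with a CpG-rich promoter, Zfp genes and all protein-coding genes. The line of the BTB zinc finger genes is the upper one in each panel, at 50% for Zbtb7a, 42.1% for Mta2 and 39.5% for Mbd3 with 5000 peaks.

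The strongest Zbtb7a peak at each member had a median fold of 28.4, against 16.2 over all occupied genes. The quartiles were 16.9 and 38.3, and the range ran from 6.59 at Zbtb6 to 67.8 at Zbtb20. In the Mta2 list the median of members was 22.3, against 16.8 over all genes, and in the Mbd3 list it was 19.0, against 15.4. Of the members, 10 (26.3%) ranked in the top 10% of occupied genes by Zbtb7a fold, a class that holds 7.60% of all genes and starts at fold 37.3. In the top 25% were 20 members (52.6%), against 19.0% of all genes. Such shares of all genes, here and below, count unoccupied genes too. Among occupied genes alone the classes hold 10% and 25% by definition, and every member was occupied. For Mta2 the counts were 7 in the top 10% and 11 in the top 25%, against 7.77% and 19.4% of all genes. For Mbd3 they were 5 and 15, against 7.65% and 19.1%. Of the 17 Klf genes, 7 (41.2%) were in the top 10% for Zbtb7a, 7 for Mta2 and 4 (23.5%) for Mbd3. In the top 25% were 8 Klf genes (47.1%) for Zbtb7a, 7 for Mta2 and 8 for Mbd3. Among genes with a CpG-rich promoter, the median top Zbtb7a fold was 29.1 for members and 19.6 for all such genes, and 6 of 27 members were in the top 10% of that class. Zbtb7a folds were higher at longer genes. When all genes were split by span into 3 classes of like size, the 9 members in the longest class, over 31.7 kb, had a median top Zbtb7a fold of 44.5, against 19.0 for all occupied genes of that length. In the middle class the medians were 23.5 for 17 members and 15.5 for all genes, and in the shortest class 20.4 for 12 members and 12.8 for all genes. From the shortest to the longest class, the medians of members were 22.2, 17.6 and 22.9 for Mta2 and 17.3, 15.5 and 25.8 for Mbd3. Over all occupied genes they rose, with 13.5, 16.0 and 19.8 for Mta2 and 12.7, 14.7 and 17.9 for Mbd3.

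**Figure D2:**
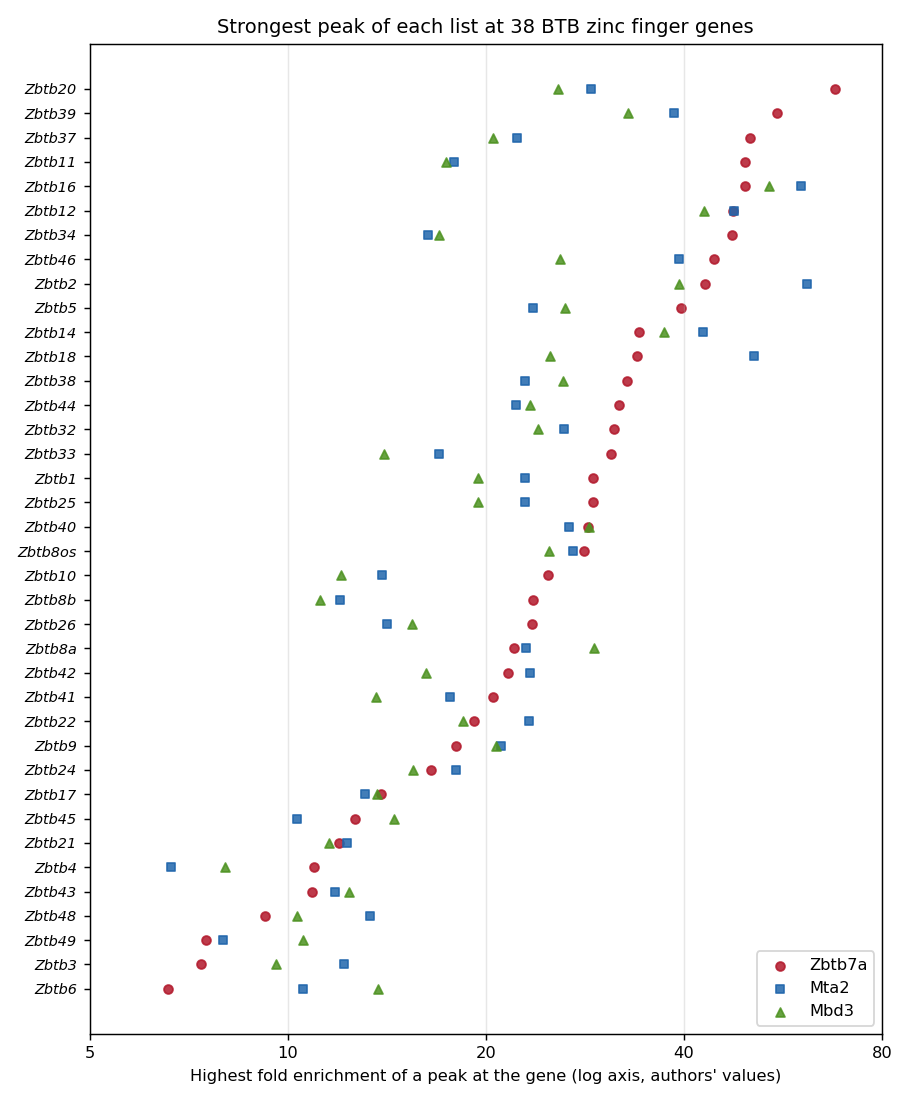
Highest fold enrichment of a peak at each of the 38 genes (horizontal axis, logarithmic) in the Zbtb7a, Mta2 and Mbd3 lists, with genes ordered by the Zbtb7a value. Each point is 1 peak of a list that stands for both mice. Zbtb7a values run from 67.8 at Zbtb20 to 6.59 at Zbtb6, and distances between symbols of different lists are not measures of relative binding.

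Zbtb20, a repressor known for silencing alpha-fetoprotein in the liver after birth, had the highest Zbtb7a fold of the family at 67.8 (99.0th percentile). The peak lay at chromosome 16, 42874570 to 42876960, with its summit 470 bp inside the lower end of the gene (42875689 to 43634392) and 397 bp from the end of the long noncoding RNA gene 4932412D23Rik. The gene spans 759 kb and held 95 Zbtb7a summits, 125 Mta2 summits and 118 Mbd3 summits. The next Zbtb7a peak in it had a fold of 20.7 and the median fold was 3.34, so 1 peak stood above the rest. Mta2 had no such peak: its highest folds there were 28.9, 28.0 and 26.3, and the Mta2 peak under the strongest Zbtb7a peak had a fold of 26.0. The strongest Mta2 and Zbtb7a summits of the gene lay 459395 bp apart. Relative to the start that the promoter table gives for Zbtb20, the Zbtb7a summit lay at -371125 bp, and near that start the folds were 11.1 for Zbtb7a, 13.1 for Mta2 and 14.2 for Mbd3.

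Zbtb16, which encodes PLZF, a factor of germline stem cells and natural killer T cells, carried its strongest peaks of all 3 factors at 1 place deep inside the gene. On chromosome 9 (gene 48651797 to 48836225) the strongest Zbtb7a summit had a fold of 49.6 (96.2nd percentile), in a peak of 6117 bp at 48736071 to 48742187. Mta2 reached 60.3 (99.5th percentile) 30 bp from it and Mbd3 53.9 (99.3rd percentile) 36 bp from it. These summits lay 85.9 kb from the lower end for Zbtb7a. A second Zbtb7a peak of the gene had a fold of 35.2 and a second Mta2 peak one of 58.7. In all, 42 Zbtb7a, 47 Mta2 and 38 Mbd3 summits lay in or near the gene, or 22.5, 25.2 and 20.4 per 100 kb. The medians over all protein-coding genes, those without a summit included, were 7.58, 9.14 and 8.18 per 100 kb. Over the members of the family they were 12.7, 14.8 and 13.0, and Zbtb38 was denser than Zbtb16, at 29.5, 39.3 and 23.6.

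**Figure D3:**
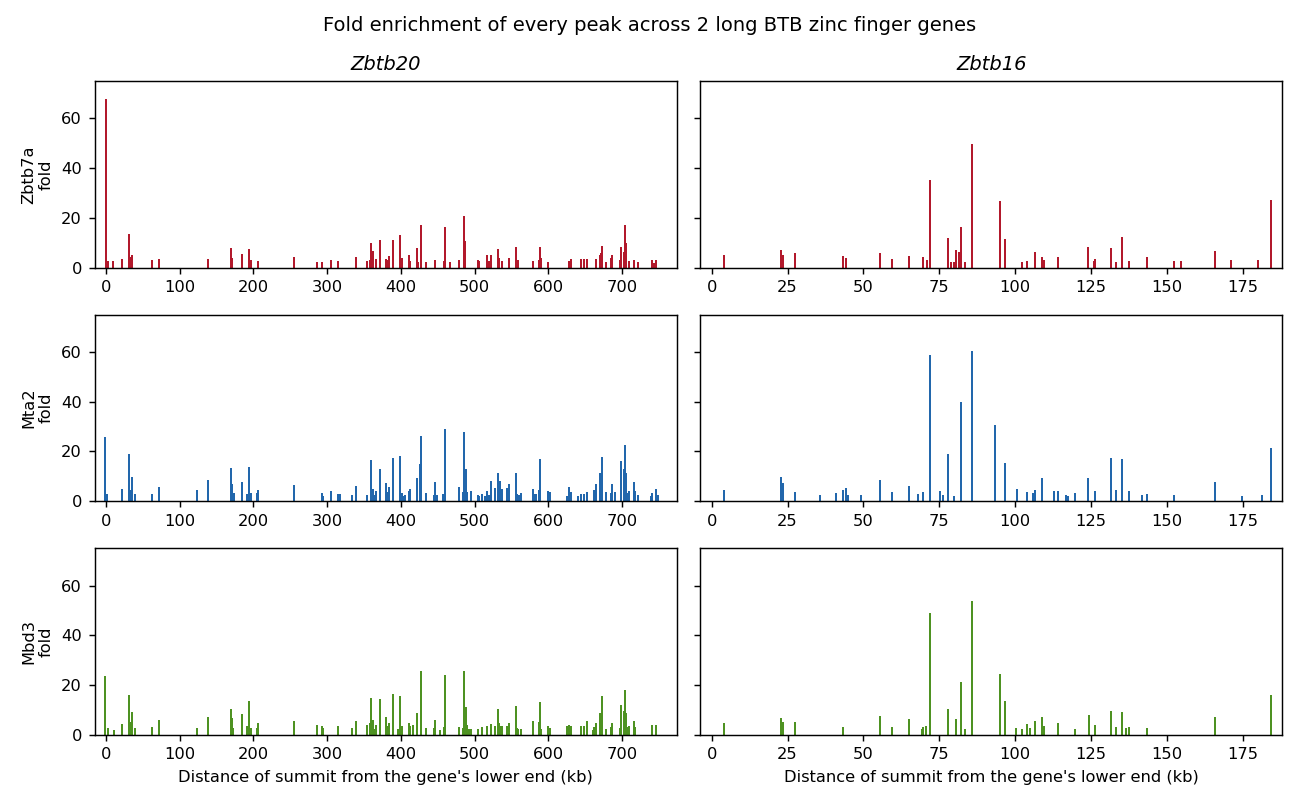
Fold enrichment of every peak (vertical axis) against the distance of its summit from the lower end of Zbtb20 and Zbtb16 (horizontal axis, kb), with 1 row per list. In Zbtb20 the Zbtb7a peak of fold 67.8 at the lower end stands above the next one of 20.7, and in Zbtb16 the strongest peaks of all 3 lists share 1 place inside the gene.

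Of the 38 members, 4 had more than 10 Zbtb7a summits. Besides Zbtb20 and Zbtb16 these were Zbtb38, with 15, and Zbtb46, with 13. Zbtb40 followed with 8, and its strongest Zbtb7a, Mta2 and Mbd3 folds were 28.6, 26.8 and 28.7. Zbtb46, a marker of classical dendritic cells, had its strongest Zbtb7a summit (fold 44.5, 94.3rd percentile) 33810 bp inside its upper end, with Mta2 (39.4) and Mbd3 (25.9) summits 18 and 4 bp away. A single Zbtb7a summit was present at 12 members, 2 or 3 at 14 and 4 to 10 at 8. The number of summits followed gene length (Spearman rho 0.66 across the 38 genes, which share the same 3 lists), and the Zbtb7a fold followed it less (rho 0.40). For the Mta2 and Mbd3 folds rho with gene length was 0.11 and 0.17.

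Of the factors of lymphoid and myeloid development, 5 of 7 were in the top 25% by Zbtb7a fold and 3 of 7 each by Mta2 and by Mbd3 fold. These classes hold 19.0%, 19.4% and 19.1% of all genes. The 5 by Zbtb7a fold were Zbtb16 and Zbtb46 (above), Zbtb1 and Zbtb25 at 29.1, and Zbtb32, a brake on lymphocyte activation, at 31.3. The Zbtb32 summit lay 745 bp outside its lower end, 4007 bp from its nearest start, and also in or within 1 kb of Kmt2b. Zbtb1, needed for lymphocyte development, and Zbtb25 lie side by side on chromosome 12 with their ends overlapping, and both values come from the same peak. Zbtb24, whose human counterpart is mutated in an immunodeficiency with centromere instability, had a fold of 16.5 (51.2nd percentile). Zbtb17 encodes Miz1, a partner of Myc, and had a fold of 13.8 (42.2nd percentile), 4314 bp inside its upper end.

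Of the methylated DNA binders, Zbtb33, Zbtb38 and Zbtb4, the first 2 ranked in the top 25% by Zbtb7a fold, none did by Mta2 fold and Zbtb38 did by Mbd3 fold. The shares of all genes are 19.0%, 19.4% and 19.1%. Zbtb33, which encodes Kaiso, had a Zbtb7a fold of 31.0 (83.1st percentile, chromosome X, 38189492 to 38190351) and Mta2 and Mbd3 folds of 17.0 and 14.0, at percentiles 50.6 and 43.9. Zbtb38 had a Zbtb7a fold of 32.7 (85.5th percentile) and Mta2 and Mbd3 folds of 22.9 and 26.2, at percentiles 71.1 and 82.8. At Zbtb4 the values were low in all lists, with folds of 11.0 for Zbtb7a, 6.65 for Mta2 and 8.02 for Mbd3 at percentiles 31.3, 12.8 and 19.9.

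Zbtb2 and Zbtb5, both reported in human cells to repress CDKN1A, the cell cycle inhibitor gene that p53 activates, had Zbtb7a folds of 43.1 and 39.7, at percentiles 93.8 and 91.8. At Zbtb5 (Zbtb7a peak at chromosome 4, 45011586 to 45013166) Mta2 had a fold of 23.6 (72.8th percentile) and Mbd3 one of 26.4 (83.0th percentile). Zbtb2 also held the highest Mta2 fold of the family, 61.5 (99.6th percentile), at chromosome 10, 4386296 to 4388857. The 3 summits there lay within 10 bp of each other, 1107 to 1117 bp inside the upper end. Zbtb49, the fifth gene of this group with Zbtb4 and Zbtb17, was among the lowest, with a Zbtb7a fold of 7.52 (18.8th percentile). In total 2 of the 5 genes ranked in the top 25% by Zbtb7a fold, against 19.0% of all genes.

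The telomere binders were not in the top 25% of any list. Zbtb10, also known as a repressor of Sp1 expression, had a Zbtb7a fold of 24.9 (72.8th percentile), and Zbtb48, a trimming factor of long telomeres, had 9.24 (24.8th percentile). Among repressors of neural and metabolic genes, Zbtb18, which guides development of the cerebral cortex, had a Zbtb7a fold of 34.0 (87.1st percentile) and a Mta2 fold of 51.2 (98.8th percentile). Zbtb42 and Zbtb45 had Zbtb7a folds of 21.6 and 12.6. With Zbtb20, 2 of these 4 genes ranked in the top 25% for Zbtb7a, for Mta2 and for Mbd3. Among all genes the shares are 19.0%, 19.4% and 19.1%.

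Other members in the top 10% by Zbtb7a fold were Zbtb39 (55.5), Zbtb37 (50.4), Zbtb11 (49.6, 96.2nd percentile), Zbtb12 (47.5) and Zbtb34 (47.4). At Zbtb37 the peak at chromosome 1, 161034171 to 161035494, had Mta2 and Mbd3 folds of 22.3 and 20.5 beside it. At Zbtb11 (chromosome 16, 55973321 to 55975268) they were 17.9 and 17.4, and the Mbd3 summit lay 918 bp from that of Zbtb7a. Zbtb39 also ranked high for Mta2 (38.6, 94.6th percentile) and Mbd3 (32.9, 91.8th percentile), with the 3 summits within 22 bp (Zbtb7a peak at chromosome 10, 127738109 to 127740200). Zbtb12 did so too, with Mta2 at 47.7 and Mbd3 at 42.9. Zbtb12 spans 34894559 to 34896867 on chromosome 17, and its strongest Zbtb7a summit lay 334 bp from that of Mta2 and 341 bp from that of Mbd3. At the low end, after Zbtb6 (6.59), came Zbtb3 (7.38), Zbtb49, Zbtb48 and Zbtb43 (10.9). At Zbtb6 (15.7th percentile) the only Zbtb7a peak lay at chromosome 2, 37430610 to 37431399, and the Mta2 and Mbd3 folds were 10.5 and 13.7. These 5 also lay below the median of occupied genes for Mta2, with folds of 7.97 to 13.4, and for Mbd3, with folds of 9.59 to 13.7. The other members, Zbtb8a, Zbtb8b, Zbtb8os, Zbtb9, Zbtb14, Zbtb21, Zbtb22, Zbtb26, Zbtb40, Zbtb41 and Zbtb44, had Zbtb7a folds between 12.0 at Zbtb21 and 34.1 at Zbtb14.

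Some of the strongest peaks lie at more than 1 gene. For 10 members (26.3%) the strongest Zbtb7a summit also lay in or within 1 kb of another protein-coding gene, against 20.5% of all genes with a Zbtb7a summit. At Zbtb32 that gene was Kmt2b, a histone methyltransferase gene, at Zbtb22 it was Daxx, a histone chaperone gene, and at Zbtb8os it was Rbbp4, which encodes a NuRD subunit. The others included Rabgap1 at Zbtb26, Tas1r1 at Zbtb48, Lyar at Zbtb49, Gm49894 at Zbtb14, and Zbtb1 with Zbtb25. None of the 10 was in the top 10% by Zbtb7a fold, against 8.06% of all genes with such a shared peak.

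The strongest Zbtb7a summit lay within 1 kb of an end of a noncoding gene at 5 of 38 members (13.2%), against 9.62% of all genes with a Zbtb7a summit, a share near the background. At Zbtb37 the summit was 11 bp from the lower end of Gas5, the growth arrest noncoding RNA gene that hosts small nucleolar RNAs (chromosome 1, 161034601 to 161038539). At Zbtb11 it was 5 bp from the upper end of Zbtb11os1 (chromosome 16, 55973268 to 55974617) and 818 bp downstream of the Zbtb11 start. The other genes were 4932412D23Rik at Zbtb20, 1700055D18Rik at Zbtb5 and Gm32082 at Zbtb32. Of the 10 members in the top 10% by Zbtb7a fold, 4 had a noncoding gene end that near, against 12.8% of all genes in that class. For which gene the signal is relevant cannot be told from peak positions.

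The strongest peaks lay mostly at starts of transcription. Of the 34 members with a start in the table, 27 (79.4%) had the strongest Zbtb7a summit within 1 kb of a start and 18 (52.9%) within 200 bp, against 51.4% and 39.5% of all genes in the table, unoccupied ones included. For Mta2 28 were within 1 kb and 20 within 200 bp, against 49.7% and 39.2%. For Mbd3 28 and 19 were, against 48.9% and 38.3%. All 34 members were occupied by Zbtb7a, Mta2 and Mbd3, against 75.8%, 77.4% and 76.2% of all genes in the table. That difference enters these gaps, and shares among occupied genes alone were not computed. A Zbtb7a summit of any strength lay within 1 kb of a start at 31 members (91.2%), against 66.5% of all genes in the table and 95.3% of those with a CpG-rich promoter. The exceptions were Zbtb2, Zbtb32 and Zbtb46. Inside the 300-base promoter window a Zbtb7a summit lay at 22 members (64.7%), against 46.3% of all genes in the table. The Mta2 and Mbd3 counts were 23 each, against 49.2% and 47.9%. With a CpG-rich promoter the Zbtb7a, Mta2 and Mbd3 shares were 66.7%, 70.4% and 70.4% of members. They were 72.7%, 76.4% and 74.6% of all such genes, so members were not above that class. Of the 27 strongest Zbtb7a summits near a start, 8 lay downstream of it, and the median position was 62 bp upstream. For Mta2 the median was 35.5 bp upstream and for Mbd3 33 bp upstream, with 11 and 9 of 28 downstream.

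**Figure D4:**
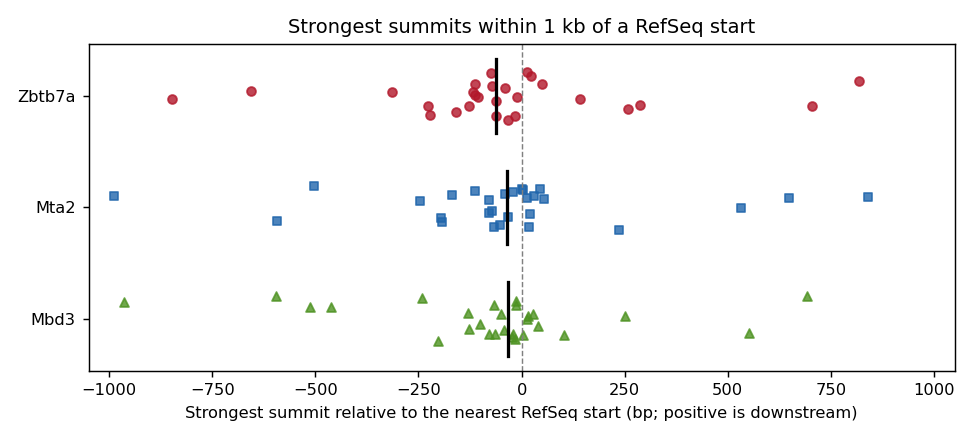
Position of the strongest summit of each gene relative to the nearest RefSeq start (horizontal axis, bp, positive downstream) for summits within 1 kb of it, with 1 row per list. Points are genes (27 for Zbtb7a, 28 each for Mta2 and Mbd3), spread vertically for legibility, and black bars are the medians, which lie upstream of the start in all 3 lists.

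The strongest Zbtb7a peak of all 38 members overlapped a Mta2 peak and a Mbd3 peak, against 97.6% of all genes with a Zbtb7a summit, so this count is near the background. Its summit lay within 50 bp of the gene's strongest Mta2 summit at 22 members (57.9%) and within 100 bp at 29 (76.3%), against 63.5% and 74.3% of all genes with both. The median distance was 34 bp for members and 31 bp for all genes. For Mbd3 26 members (68.4%) were within 50 bp and 28 (73.7%) within 100 bp, against 65.4% and 75.4% of all genes, and the medians were 31 and 29 bp. These distances too are near the background. The strongest summits of Zbtb7a and Mta2 were over 1 kb apart at 5 members (13.2%), against 15.8% of all genes, and those of Zbtb7a and Mbd3 at 3 (7.89%), against 14.6%. The 5 were Zbtb14, Zbtb20, Zbtb24, Zbtb38 and Zbtb43, read off after their values were seen. At Zbtb14 they lay 1027 bp apart within the same stretch of overlapping peaks. Counting all distinct peaks at the family, 217 of 251 Zbtb7a peaks (86.5%) overlapped both other lists, against 86.6% of the whole list. For Mta2 the shares were 63.2% of 307 peaks and 68.4% of the list, and for Mbd3 76.1% of 268 peaks and 78.6% of the list.

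Ranks in the lists were not the same. Zbtb7a ranked higher than Mta2 at 22 of 38 members, against 45.7% of all genes with both. It stood more than 20 percentile points higher at 7 members (18.4%), against 8.10% of all genes, and more than 20 points lower at none, against 9.44%. Against Mbd3 it ranked higher at 22 of 38 members, against 47.1% of all genes with both, more than 20 points higher at 8 (21.1%), against 8.80%, and more than 20 points lower at 2 (5.26%), against 8.45%. The 7 higher than for Mta2 were Zbtb34 (95.4th against 48.3rd percentile), Zbtb11 (96.2nd against 54.1st), Zbtb8b (70.5th against 30.9th), Zbtb10 (72.8th against 38.6th), Zbtb33, Zbtb26 (70.3rd against 39.6th) and Zbtb37 (96.4th against 69.2nd). At Zbtb34 the Zbtb7a peak, at chromosome 2, 33430278 to 33431735, had a fold of 47.4, and Mta2 and Mbd3 had 16.3 and 17.0, 49 and 48 bp from its summit. The 2 lower than for Mbd3 by over 20 points were Zbtb6 (15.7th against 42.7th) and Zbtb8a (67.0th against 87.7th). For Mta2 the largest gaps in that direction were at Zbtb3 (18.3rd against 31.3rd), Zbtb22 (59.4th against 71.9th), Zbtb18, Zbtb48 and Zbtb14 (87.3rd against 96.6th). Across the 38 genes, which come from the same 3 lists, the highest folds correlated with Spearman rho 0.74 for Zbtb7a and Mta2, 0.75 for Zbtb7a and Mbd3 and 0.91 for Mta2 and Mbd3. Over all genes the values were 0.85, 0.86 and 0.94.

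**Figure D5:**
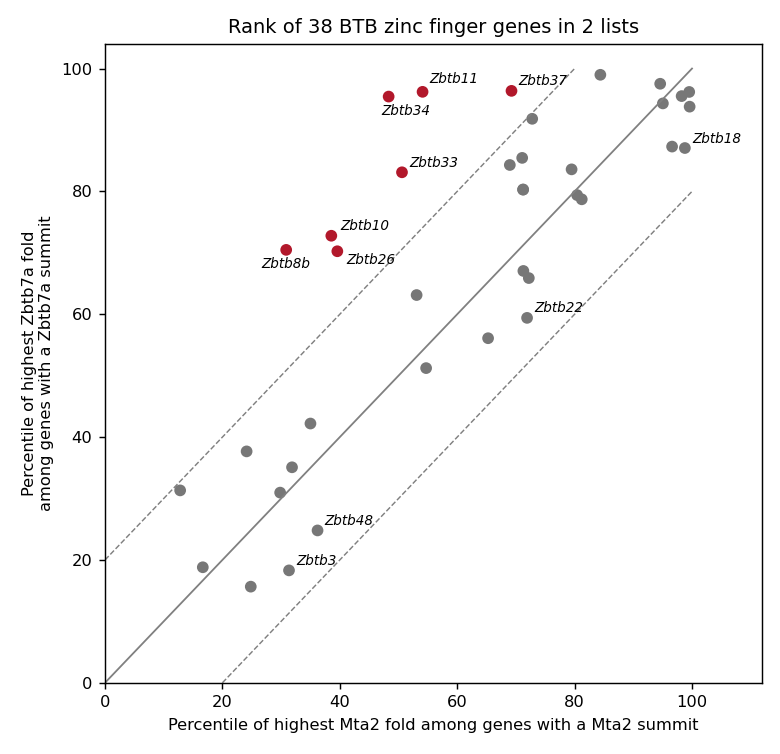
Percentile of the highest Zbtb7a fold (vertical axis) against that of the highest Mta2 fold (horizontal axis) for the 38 genes, each among all protein-coding genes with a summit of that list. The solid line marks equal ranks and the dashed lines a gap of 20 points. The 7 genes in red lie above the upper dashed line, and none lies below the lower one.

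Promoters of the family held the CCGGAAG letters more often than promoters at large. A match on either strand occurred at 12 of 34 members (35.3%), against 13.1% of all genes in the table. With a CpG-rich promoter it occurred at 11 of 27 members (40.7%), against 21.0% of all such genes. CCCTTCCCC occurred at 2 members, Zbtb34 and Zbtb44 (5.88%), against 2.63% of all genes. GACCACCGA, the core of the sequence that human ZBTB7A selects in vitro, occurred at none, against 0.162%. The GC box GGGCGG was at 25 (73.5%), against 49.8%, and CGCG, which can overlap it, at 27 (79.4%), against 52.9%. With a CpG-rich promoter GGGCGG was at 85.2% of members and 81.8% of all such genes. For CGCG these shares were 92.6% and 92.7%, so both are near that class. At 9 of the 12 members with CCGGAAG the nearest Zbtb7a summit lay within 100 bp of a match, against 62.1% of all genes with a match. For Mta2 the count was 10, against 65.2%, and for Mbd3 11, against 66.7%. A match describes letters only, and the differences in share were not tested.

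Of the 6 members that ranked over 20 points higher for Zbtb7a than for Mta2 and had a promoter in the table, 5 held CCGGAAG (Zbtb11, Zbtb26, Zbtb33, Zbtb34 and Zbtb37), against 7 of the other 28. Over all genes the shares were 19.9% of 1064 genes with such a gap, 16.4% of 10697 within 20 points and 17.2% of 1199 that ranked over 20 points lower for Zbtb7a. With a CpG-rich promoter they were 23.1%, 21.1% and 20.9%. Against Mbd3 the order over all genes was another one, with 18.3% above, 15.8% within and 24.6% below, and 20.9%, 20.2% and 31.4% with a CpG-rich promoter. In the family 6 of 7 members above, 5 of 25 within and 1 of 2 below held the letters in that comparison. Of the 5 genes named, Zbtb11 and Zbtb37 have no Zbtb7a summit in the promoter window. Their nearest Zbtb7a summits lay 823 bp and 233 bp from a match. The comparison within the family was chosen after its values were seen.

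Relatives of the family were occupied too. BTB zinc finger genes of other symbols were occupied by all 3 factors at 8 of 8, against 74.7% of all genes, with a median top Zbtb7a fold of 24.4, against 16.2. By Zbtb7a fold 3 of them ranked in the top 25%, by Mta2 fold 3 and by Mbd3 fold 2, against 19.0%, 19.4% and 19.1% of all genes. Hic2 led at 52.5 (96.9th percentile), followed by Patz1 at 37.0 and Zfp131 at 32.5, while Bcl6, the master factor of germinal centre B cells, had 20.3 and Bcl6b 7.11. At the genes left out by the rule, the highest Zbtb7a folds were 34.6 at Zbtb7a itself, 56.3 at Zbtb7b and 30.1 at Zbtb7c, at percentiles 87.6, 97.7 and 81.7.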

How the data were processed

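Zbtb7a, Mta2, Mbd3 and Input chromatin were sampled from 2 mice each, and 1 peak list per factor was analysed. The submitters' processing notes name mm10, MACS2, Bowtie2, bedtools and deepTools. Version and parameters of each were not given in the sources used here. Each peak's fold is a ratio over background, as deposited by the authors, and the authors also deposited a −log10 q value and the offset of the summit from each peak's start. The labels do not say how the mice of a group were merged, and the depth of the libraries was not analysed here. A peak caller with a fixed threshold leaves weaker binding unlisted, so a gene without a summit cannot be called unbound.

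Peaks on autosomes and X were assigned by summit to RefSeq genes (GRCm38.p6, the coordinates of mm10) with pandas 2.3.3 and numpy 2.4.6 under Python 3.11.15. Assignment and overlap (at least 1 bp) were tested on simulated peaks. Exact binomial intervals came from scipy 1.17.1. The gene table gives spans, not exons, and starts came from the promoter table. Promoters matched 34 of the 38 symbols. The members and lists were chosen with earlier results of these data known. The rule named all members, with fuller values for the 10 highest and 5 lowest Zbtb7a folds, the most summits, the largest rank gaps and the role groups. Length of top lists, CpG classes, length classes, noncoding neighbours and rank gaps were added after the data were seen. A neighbouring gene and a list of partner genes are not reported here.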

Additional observations from a re-analysis of the deposited data

How the results depend on the processing

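No paired analysis was possible because each list stands for both mice and carries no value per mouse, and leaving out a mouse was not possible for the same reason. The counts of occupied members and of shared top peaks changed by less than 1.5 times with windows of 0.5 or 3 kb, a fold floor of 5, a −log10 q floor of 10, equally long lists and assignment by overlap. With 0.5 kb, Zbtb14 lost Mta2 and Mbd3, whose summits lay 503 and 514 bp outside it. Without any window, 30 members kept a Zbtb7a summit, against 65.8% of all genes, and 4 members had no factor inside the span. The median top Zbtb7a fold of members was 23.5 for summits within 1 kb of an end, against 14.4 over all genes, and 29.1 for genes with a CpG-rich promoter. The number of members in the top 10% by Zbtb7a fold was 6 among genes with a CpG-rich promoter (27 members ranked), 6 by the highest fold within 1 kb of a RefSeq start (31 members ranked), and 8 to 12 otherwise. The cause was not tested.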
